A study of Mus musculus with 6 samples.

Results

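The genes described are the 8 receptor genes through which the myeloid growth factors act: Csf1r, Csf2ra, Csf2rb, Csf2rb2, Csf3r, Il3ra, Kit and Flt3. They were chosen by gene symbol, with earlier results of these data known, and all 8 had a row in the deposited table of 11489 genes. RNA was sequenced from mouse bone marrow cells that were sorted by flow cytometry for F4/80, a surface protein of mouse macrophages, and for eGFP from an Epor reporter, Epor being the gene of the erythropoietin receptor. F4/80+Epor-eGFP+ cells (3 libraries) were compared with F4/80+Epor-eGFP- cells (3 libraries). The labels describe both groups as macrophages of erythroblastic islands, where maturing erythroblasts surround a central macrophage, and give no age, strain or genotype beyond the reporter. They also do not say how the reporter was built, nor whether each library is a different mouse, so the p-values reflect variation among these libraries only, which may be technical.

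Myeloid cells depend on a small set of growth factor receptors. Csf1r, Kit and Flt3 are receptor tyrosine kinases of one structural class: Csf1r binds CSF1 and IL-34 and maintains monocytes and macrophages, Kit binds stem cell factor on progenitors, mast cells and early erythroid cells, and Flt3 binds FLT3 ligand on lymphoid and dendritic progenitors. The others are cytokine receptors without a kinase of their own, which signal through JAK kinases and STAT factors. Csf3r binds G-CSF and drives neutrophil production. Csf2ra and Il3ra are the ligand-binding alpha chains for GM-CSF and IL-3, and both pair with the common beta chain Csf2rb, while Csf2rb2 is a further beta chain of the mouse that serves IL-3 alone.

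The values are FPKM, a unit scaled for gene length and for the size of the library, so levels of different genes may be set side by side. Differences are given on the log2(FPKM + 1) scale as Epor-eGFP+ minus Epor-eGFP-, tested with limma over the 10964 genes whose mean reached 1 FPKM, and called at a Benjamini-Hochberg adjusted p under 0.05. All 8 receptor genes passed that minimum. Epor averaged 5.96 ± 2.26 FPKM in Epor-eGFP+ cells and 0.335 ± 0.105 FPKM in Epor-eGFP- cells (SD, n = 3 each). Adgre1, the F4/80 gene, averaged 167 ± 65.5 FPKM in Epor-eGFP+ cells and 136 ± 3.85 FPKM in Epor-eGFP- cells, a difference that did not pass (limma adjusted p = 0.463). Macrophage genes were present in both groups, but so were genes of granulocytes: the summed FPKM of 24 neutrophil markers ran from 21029 to 26828 in Epor-eGFP+ libraries and from 27069 to 41583 in Epor-eGFP- libraries. Total FPKM per library lay between 467176 and 519650. How many reads each value rests on is unknown.

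Of the 8 receptors, 6 fell in Epor-eGFP+ cells and none rose, or 7 fell and 1 rose with a replicate block. Among all tested genes 26.3% were called lower and 22.7% higher, or 49.0% in either direction. With the block 30.4% of them were called lower and 28.0% higher. With libraries rescaled to a common total, 3056 genes were called higher and 2082 lower, against 2489 and 2883 as deposited. The groups did not overlap for 6 receptors, all lower in Epor-eGFP+ cells, and 31.9% of all tested genes were likewise lower in every Epor-eGFP+ library, 28.4% higher and 60.4% either. The median log2 fold change of the 8 genes was −0.55, against −0.01 over all tested genes. Csf2rb2, Csf2rb and Flt3 had the largest falls, Csf2ra, Csf3r and Il3ra had smaller ones, and Csf1r and Kit did not pass the test. With the replicate block, which takes libraries of the same column number as pairs, Csf1r was called lower and Kit higher. That pairing comes from the data alone and not from a label. Kit was the only member whose mean was higher in Epor-eGFP+ cells. In these sorted populations, fewer cells of a type and less RNA per cell cannot be told apart. With 3 against 3 libraries an exact two-sided permutation test cannot go below p = 0.1, and the 6 receptors that fell reached that value.

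**Figure D1:**
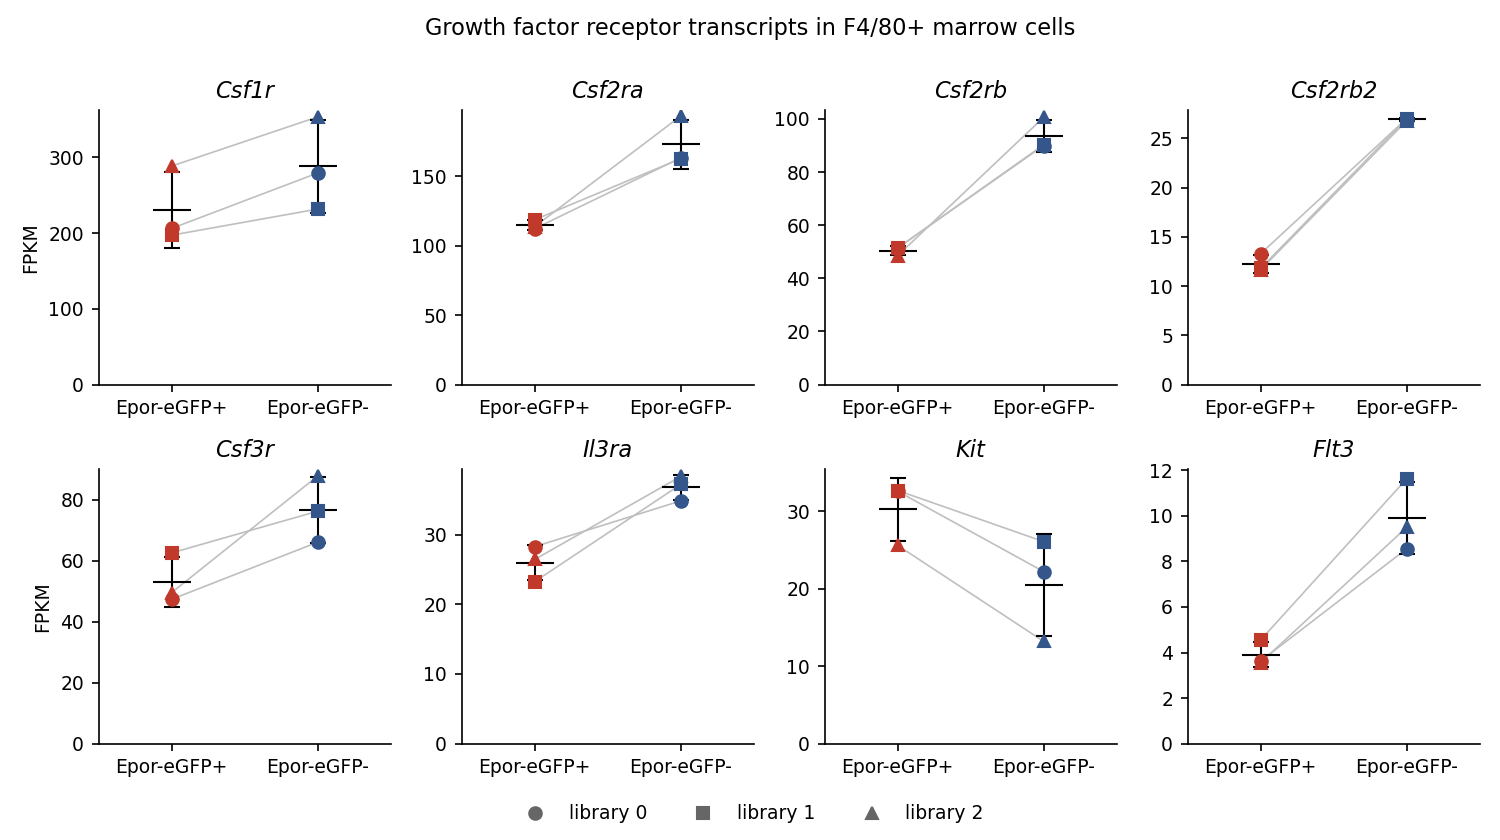
FPKM of each receptor gene in every library (y axes start at 0), Epor-eGFP+ left and Epor-eGFP- right, with the mean and SD of 3 libraries in black and grey lines joining libraries with the same column number. The groups do not overlap for Csf2ra, Csf2rb, Csf2rb2, Csf3r, Il3ra and Flt3, and overlap for Csf1r and Kit.

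Csf1r, the receptor of the macrophage growth factor CSF1, was the most abundant of the 8 in both groups. It was at 206, 197 and 288 FPKM in Epor-eGFP+ libraries 0 to 2, against 279, 232 and 353 FPKM in Epor-eGFP- libraries 0 to 2. The groups overlapped, and library 2 was highest in each. The means were 230.5 ± 50.3 FPKM in Epor-eGFP+ cells and 288 ± 61.3 FPKM in Epor-eGFP- cells (SD, n = 3 each), and the difference was not called (log2 fold change −0.32, SE 0.20, 95% interval −0.79 to 0.15, limma adjusted p = 0.218). Within each column number the Epor-eGFP+ library was the lower one, by 0.44, 0.23 and 0.29 on the log2 scale. With a replicate block for the column number, Csf1r passed with the same log2 fold change (SE 0.07, limma adjusted p = 0.0145), in a fit that called 30.4% of all tested genes lower and 28.0% higher. Csf1r ranked at the 97.6th percentile of all genes by mean FPKM in Epor-eGFP+ cells and at the 97.8th in Epor-eGFP- cells.

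Most genes of the macrophage core list rose, while monocyte markers fell. Of 23 other macrophage core genes tested, 13 rose, 3 fell and 7 had no call (median log2 fold change 1.79, or 1.05 without Epor-eGFP- library 2). C1qa and C1qc, which encode chains of the complement protein C1q, rose by 5.23 and 5.21 on the log2 scale. Their Epor-eGFP+ means were 933 and 902 FPKM, or 591 and 551 without Epor-eGFP+ library 2, against 20.9 and 20.2 FPKM in Epor-eGFP- cells. The summed FPKM of the 23 genes ran from 7803 to 13277 in Epor-eGFP+ libraries and from 4482 to 14037 in Epor-eGFP- libraries, the lowest being Epor-eGFP- library 2, where Lyz2 is listed at 0. Markers of classical monocytes fell in 13 of 15 cases and rose in none (median −1.51), including Vcan (−2.49, SE 0.23) and Fn1 (−2.38, SE 0.18). The sum of their FPKM ran from 3118 to 3756 in Epor-eGFP+ libraries and from 6385 to 8013 in Epor-eGFP- libraries. Of 12 nonclassical monocyte markers, 2 rose (1 without Epor-eGFP+ library 0) and 7 fell (median −0.89), with Pparg at 1.80 and Ace at −1.76 (log2 fold changes), and their sums ran from 467 to 522 FPKM in Epor-eGFP+ libraries and from 618 to 833 FPKM in Epor-eGFP- libraries. The part of these cell types in the Csf1r values was not tested. Csf1r occupies bases 61100598 to 61132149 of chromosome 18, plus strand (GRCm38). Whether the libraries kept strand information was not established here. Of the 5774 annotated exon bases of Csf1r, 873 overlap exons of Hmgxb3 on the other strand. Hmgxb3 was at 8.50 ± 0.121 FPKM in Epor-eGFP+ cells and 7.73 ± 0.416 FPKM in Epor-eGFP- cells, far below Csf1r.

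Csf2ra, the alpha chain that binds GM-CSF, was the next most abundant. Its level was 112, 119 and 114 FPKM in Epor-eGFP+ libraries 0 to 2, against 163, 163 and 194 FPKM in Epor-eGFP- libraries 0 to 2. Every Epor-eGFP+ library lay below every Epor-eGFP- library, and the Epor-eGFP+ libraries lay close together. Csf2ra fell to 66.4% of the Epor-eGFP- mean, 115 ± 3.38 FPKM in Epor-eGFP+ cells against 173 ± 17.6 FPKM in Epor-eGFP- cells (log2 fold change −0.58, SE 0.09, limma adjusted p = 0.00245). Csf2ra lies at bases 61223957 to 61228429 of chromosome 19, minus strand.

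Csf2rb, the beta chain shared by the receptors for GM-CSF, IL-3 and IL-5, carries the signal once an alpha chain has bound its ligand. It was at 51.4, 51.4 and 48.5 FPKM in Epor-eGFP+ libraries 0 to 2, against 90.0, 90.3 and 101 FPKM in Epor-eGFP- libraries 0 to 2. The groups did not overlap, and the libraries within each lay close together. Csf2rb fell to 53.9% of the Epor-eGFP- mean (log2 fold change −0.88, SE 0.07, limma adjusted p = 0.000459). Of all tested genes, 6.03% had a log2 fold change as low or lower.

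Csf2rb2, the beta chain used with IL-3 alone, was less abundant and had a larger fold change. It was at 13.3, 11.8 and 11.7 FPKM in Epor-eGFP+ libraries 0 to 2, against 27.0, 27.0 and 26.8 FPKM in Epor-eGFP- libraries 0 to 2. The Epor-eGFP- libraries were nearly equal, and all of them lay far above the Epor-eGFP+ libraries. Csf2rb2 fell to 45.5% of the Epor-eGFP- mean (log2 fold change −1.08, SE 0.07, limma adjusted p = 0.000327). The summed level of both beta chains was 62.7 ± 2.29 FPKM in Epor-eGFP+ cells and 121 ± 5.94 FPKM in Epor-eGFP- cells (SD, n = 3 each).

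The beta chain genes lie side by side on chromosome 15 (GRCm38), Csf2rb2 from 78282507 to 78305721 on the minus strand and Csf2rb from 78325752 to 78353847 on the plus strand, with 20030 bases between them. Their coding sequences of 2688 bases (Csf2rb) and 2634 bases (Csf2rb2) were 95.2% identical over the aligned bases, and the predicted proteins of 896 and 878 residues 92.0% identical. Of 2639 windows of 50 bases in the Csf2rb coding sequence, 687 occurred letter for letter in Csf2rb2, as did 286 of 2589 windows of 100 bases. Estimates for each of these genes are therefore uncertain singly, since fragments from such windows match both, and the summed level is given beside them for that reason. The first 120 coding bases from the GENCODE transcripts (release M21) show how close they are, with the 4 positions that differ in capitals. They span chr15:78335207-78336379 on the plus strand for Csf2rb and chr15:78297071-78298229 on the minus strand for Csf2rb2, introns left out.
Csf2rb: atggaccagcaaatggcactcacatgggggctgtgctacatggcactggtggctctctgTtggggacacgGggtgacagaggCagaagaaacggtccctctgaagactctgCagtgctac
Csf2rb2: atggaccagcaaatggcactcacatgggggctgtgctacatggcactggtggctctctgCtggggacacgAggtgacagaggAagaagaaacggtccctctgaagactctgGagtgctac

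Il3ra, the alpha chain that binds IL-3, was at 28.3, 23.2 and 26.4 FPKM in Epor-eGFP+ libraries 0 to 2, against 34.8, 37.2 and 38.3 FPKM in Epor-eGFP- libraries 0 to 2. The groups did not overlap. Il3ra fell to 70.6% of the Epor-eGFP- mean (log2 fold change −0.49, SE 0.09, limma adjusted p = 0.00477). It lies at bases 14346275 to 14356011 of chromosome 14, plus strand, and 46 of its 2967 exon bases overlap the antisense gene Gm48860. Basophils and mast cells carry the IL-3 receptor, and of 11 of their markers tested, 6 fell, 1 rose and 4 had no call (median −0.70). The number that fell was 3 without Epor-eGFP+ library 1, Epor-eGFP+ library 2 or Epor-eGFP- library 0, and none rose without Epor-eGFP+ library 0. The sum of their FPKM ran from 374 to 523 in Epor-eGFP+ libraries and from 628 to 1101 in Epor-eGFP- libraries. Prss34 and Mcpt8, protease genes of basophils, were at 149 ± 37.6 and 92.2 ± 16.7 FPKM in Epor-eGFP+ cells against 413 ± 132 and 217 ± 66.3 FPKM in Epor-eGFP- cells (log2 fold changes −1.45 and −1.20, limma adjusted p = 0.00423 and 0.00497). The share of Il3ra that came from basophils was not tested. Eosinophils, which use Csf2rb for IL-5, were represented by 13 tested markers, of which 3 rose and 7 fell (median −0.70), Alox15 by 3.14 and Adora3 by 2.06 on the log2 scale. Of these markers 4 rose and 4 fell without Epor-eGFP+ library 1, and 3 rose and 4 fell without Epor-eGFP+ library 2 or without Epor-eGFP- library 0. The sum of their FPKM ran from 8655 to 16366 in Epor-eGFP+ libraries and from 15153 to 24827 in Epor-eGFP- libraries, and their part in the beta chain levels was not tested.

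The 3 ratios among these chains did not overlap between the groups. The ratio of Csf2ra to Csf2rb was 2.186, 2.31 and 2.35 in Epor-eGFP+ libraries 0 to 2, against 1.82, 1.80 and 1.92 in Epor-eGFP- libraries 0 to 2. The ratio of Il3ra to Csf2rb was 0.550, 0.452 and 0.544 in Epor-eGFP+ libraries, against 0.387, 0.412 and 0.381 in Epor-eGFP- libraries. Since Csf2rb is uncertain singly, both alpha chains were also set against the summed beta chains, a ratio chosen after seeing the data. Csf2ra over both beta chains was 1.74, 1.88 and 1.89 in Epor-eGFP+ libraries, against 1.396, 1.39 and 1.52 in Epor-eGFP- libraries. Il3ra over both was 0.437, 0.368 and 0.439 in Epor-eGFP+ libraries, against 0.298, 0.317 and 0.301 in Epor-eGFP- libraries. Every Epor-eGFP+ library thus held more of each alpha chain per beta chain transcript than every Epor-eGFP- library, with either denominator. The ratio of Csf2rb2 to Csf2rb was lower in Epor-eGFP+ libraries, at 0.259, 0.230 and 0.240, against 0.300, 0.299 and 0.266 in Epor-eGFP- libraries, and it rests on how reads were divided between these similar genes. By an exact two-sided permutation test of the log2 ratio each of the 3 ratios to Csf2rb had p = 0.1, the smallest that 3 against 3 libraries allow, or 0.15 adjusted over the 6 ratios compared, so none can pass at this sample number.

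**Figure D2:**
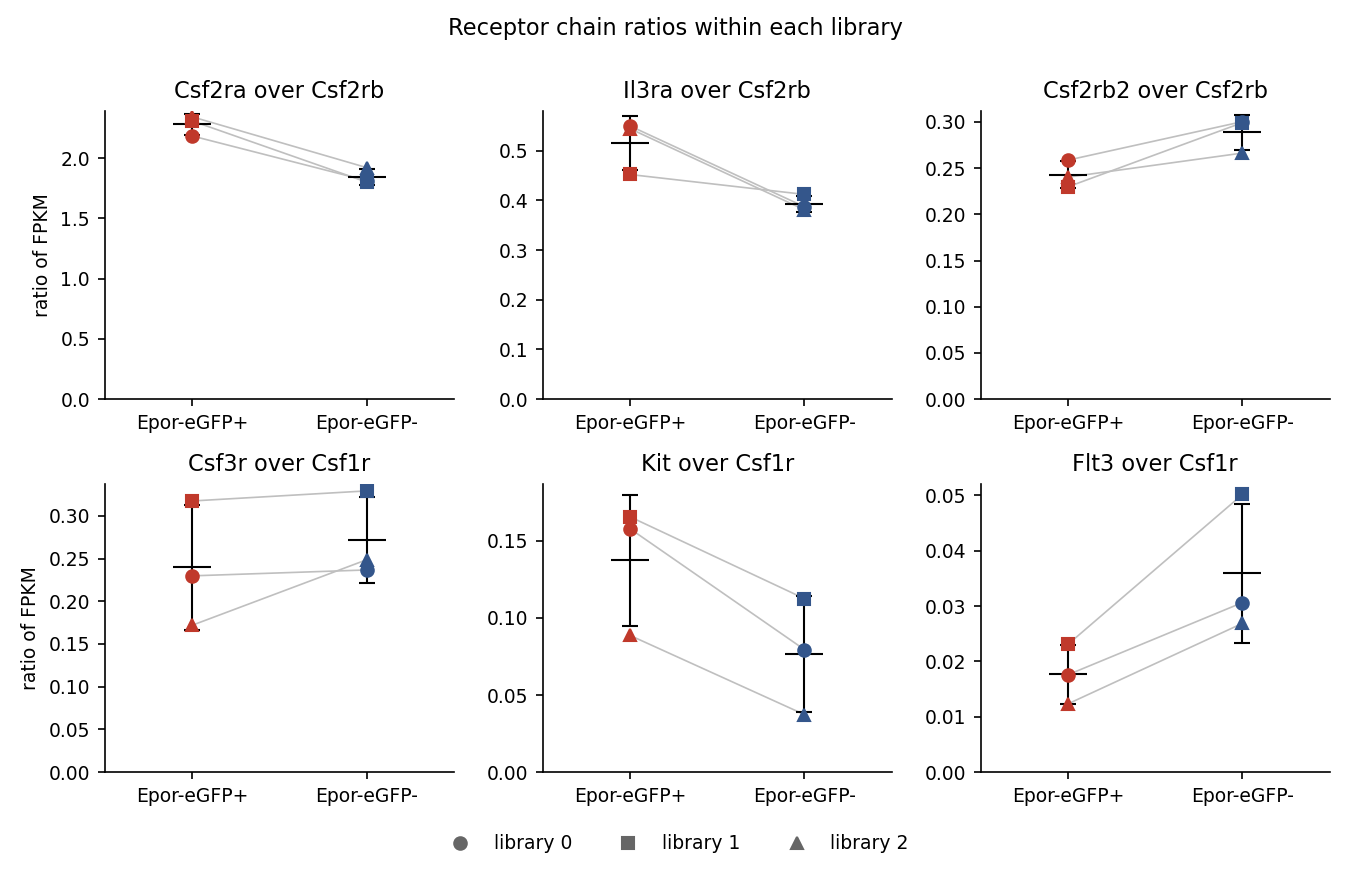
Ratio of FPKM of 2 receptor genes within each library (y axes start at 0), Epor-eGFP+ left and Epor-eGFP- right, with the mean and SD of 3 libraries in black and grey lines joining libraries with the same column number. Csf2ra and Il3ra per Csf2rb are higher, and Csf2rb2 per Csf2rb and Flt3 per Csf1r lower, in all Epor-eGFP+ libraries.

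Csf3r, the G-CSF receptor of neutrophils and their precursors, was at 47.3, 62.6 and 49.5 FPKM in Epor-eGFP+ libraries 0 to 2, against 66.1, 76.2 and 87.8 FPKM in Epor-eGFP- libraries 0 to 2. The groups did not overlap, but the highest Epor-eGFP+ library came close to the lowest Epor-eGFP- library. Csf3r fell to 69.3% of the Epor-eGFP- mean (log2 fold change −0.52, SE 0.14, limma adjusted p = 0.0207). This call was the least stable of the 6. It was lost without Epor-eGFP+ library 0 (log2 fold change −0.45, limma adjusted p = 0.0767), without Epor-eGFP- library 1 (−0.52, 0.0511), without Epor-eGFP- library 2 (−0.42, 0.0592) and after rescaling all libraries to 1 common total (−0.42, 0.0519). It was also lost without both libraries numbered 0 (−0.55, 0.0887) or numbered 2 (−0.38, 0.0947). The ratio of Csf3r to Csf1r was 0.230, 0.317 and 0.172 in Epor-eGFP+ libraries 0 to 2, against 0.237, 0.329 and 0.249 in Epor-eGFP- libraries, and the groups overlapped (exact permutation p = 0.4, adjusted 0.4 over 6 ratios).

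Most neutrophil markers fell as well. Of 24 tested, 16 fell, 5 rose and 3 had no call (median −0.92). The number called higher was 5 in every alternative except without both libraries numbered 0, where it was 4. The number called lower ran from 10 to 17. Both markers named next were taken by size of change and are among those that fell. Retnlg, which encodes a resistin-like protein of neutrophils, was at 331 ± 189 FPKM in Epor-eGFP+ cells and 1980.0 ± 348 FPKM in Epor-eGFP- cells (log2 fold change −2.70, SE 0.36), and Ifitm6 fell by 2.70 (SE 0.08). Their part in the Csf3r values was not tested. Csf3r lies at bases 126024550 to 126044440 of chromosome 4, plus strand.

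Kit, the receptor of stem cell factor, was at 32.6, 32.7 and 25.6 FPKM in Epor-eGFP+ libraries 0 to 2, against 22.2, 26.1 and 13.2 FPKM in Epor-eGFP- libraries 0 to 2. The groups overlapped, because Epor-eGFP- library 1 lay just above Epor-eGFP+ library 2, and library 2 was lowest in each group. The means were 30.3 ± 4.06 FPKM in Epor-eGFP+ cells and 20.5 ± 6.61 FPKM in Epor-eGFP- cells, and the difference was not called (log2 fold change 0.58, SE 0.24, 95% interval 0.02 to 1.15, limma adjusted p = 0.0797). Within column numbers 0, 1 and 2 the Epor-eGFP+ library was higher by 0.53, 0.31 and 0.91 on the log2 scale. With the replicate block Kit passed (SE 0.12, limma adjusted p = 0.0136), and without Epor-eGFP- library 1 it passed as well (log2 fold change 0.78, limma adjusted p = 0.0365). Without Epor-eGFP- library 2 the log2 fold change was 0.31 and did not pass (limma adjusted p = 0.121).

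Kit is carried by progenitors, early erythroid cells and mast cells, and their markers did not move as a unit. Of 15 stem and progenitor markers tested, Kit and Flt3 left out, 4 rose, 2 fell and 9 had no call (median −0.0022), or 4 higher and 4 lower with the replicate block. These counts turned on single libraries: 1 rose and 2 fell without Epor-eGFP+ library 0, 2 and 1 without Epor-eGFP+ library 1, 2 and 0 without Epor-eGFP- library 0, 4 and 0 without Epor-eGFP- library 1, and 2 and 5 without Epor-eGFP- library 2. Their median ran from −0.17 to 0.12 over these settings and that without Epor-eGFP+ library 2. Myb, a transcription factor of progenitors, rose to 101 ± 15.9 FPKM in Epor-eGFP+ cells, against 45.6 ± 12.0 FPKM in Epor-eGFP- cells (log2 fold change 1.16, SE 0.21, limma adjusted p = 0.00469). Gata2 fell to 11.7 ± 3.12 FPKM in Epor-eGFP+ cells, against 24.9 ± 8.46 FPKM in Epor-eGFP- cells (−0.99, SE 0.28, limma adjusted p = 0.0247), and lost its call without any of 4 single libraries (Epor-eGFP+ 1 or 2, Epor-eGFP- 0 or 1; adjusted p 0.0605 to 0.0840). The summed FPKM of these markers ran from 298 to 346 in Epor-eGFP+ libraries and from 265 to 342 in Epor-eGFP- libraries. Of 30 erythroid markers, 21 rose, 1 fell and 8 had no call (median 2.22), with Car1 up by 5.18 and Ermap by 3.65 on the log2 scale. Epor, on whose reporter the cells were sorted, is among those that rose. Epor and Ermap, with Epor-eGFP- means of 0.335 and 0.213 FPKM, reached the minimum of 1 FPKM only through the Epor-eGFP+ libraries. Where a mean of at least 5 FPKM was required, 20 erythroid markers were tested, 11 rose and 1 fell (median 2.37). The summed FPKM of the erythroid markers ran from 877 to 2446 in Epor-eGFP+ libraries and from 327 to 1074 in Epor-eGFP- libraries. Of 14 megakaryocyte and platelet markers, 2 rose, 2 fell and 10 had no call (median 0.38), Thbs1 falling by 2.75 and Pf4 rising by 1.99, a call lost without Epor-eGFP- library 0 (limma adjusted p = 0.0595). With the replicate block 8 of them were called higher and 2 lower, and with single libraries left out their median ran from 0.14 to 0.61. The Epor-eGFP- mean of Pf4 was 19.7 FPKM, or 11.5 without library 1, and that of Ermap 0.213 FPKM, or 0.135 without library 0. The summed FPKM of the megakaryocyte markers ran from 107 to 223 in Epor-eGFP+ libraries and from 81.2 to 188 in Epor-eGFP- libraries. The part of these cells in the Kit values was not tested. Kit lies at bases 75574916 to 75656722 of chromosome 5, plus strand.

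Flt3, the receptor of FLT3 ligand, was the least abundant of the 8 and had the largest fall on the log2 scale. It was at 3.62, 4.55 and 3.56 FPKM in Epor-eGFP+ libraries 0 to 2, against 8.55, 11.6 and 9.50 FPKM in Epor-eGFP- libraries 0 to 2. Every Epor-eGFP+ library lay well below every Epor-eGFP- library, and library 1 was highest in each group. Flt3 fell to 39.5% of the Epor-eGFP- mean (log2 fold change −1.15, SE 0.13, limma adjusted p = 0.00103), and 3.18% of all tested genes had a log2 fold change as low or lower. The ratio of Flt3 to Csf1r was 0.0176, 0.0231 and 0.0123 in Epor-eGFP+ libraries, against 0.0306, 0.0502 and 0.0269 in Epor-eGFP- libraries, with no overlap (exact permutation p = 0.1, adjusted 0.15). The ratio of Kit to Csf1r was 0.158, 0.166 and 0.0887 in Epor-eGFP+ libraries against 0.0795, 0.113 and 0.0373 in Epor-eGFP- libraries, with overlap (exact permutation p = 0.2, adjusted 0.24). Of 14 dendritic cell markers tested, Flt3 left out, 3 rose, 1 fell and 10 had no call (median −0.18), or 4 higher and 5 lower with the replicate block, and Cd83 and Itgax rose by 1.66 and 1.32. With single libraries left out, 2 to 4 dendritic cell markers rose and 1 to 4 fell, 3 without Epor-eGFP+ library 2 and 4 without Epor-eGFP- library 1, and the median ran from −0.22 to −0.05. Their summed FPKM ran from 912 to 1321 in Epor-eGFP+ libraries and from 1088 to 1611 in Epor-eGFP- libraries. Of 14 B lineage markers, 5 rose, none fell and 9 had no call (median 0.02), with Jchain and Igll1 up by 2.71 and 1.48. Without Epor-eGFP- library 1, 3 B lineage markers rose and 5 fell (median −0.33), and without Epor-eGFP- library 0, 3 rose and none fell (median 0.20). Their sums ran from 289 to 366 FPKM in Epor-eGFP+ libraries and from 152 to 450 FPKM in Epor-eGFP- libraries. Of 7 T and NK cell markers, 2 rose (Cd4 by 3.93, Nkg7 by 1.80) and 4 fell, Il2rb by 1.39 among them (median −0.95). Without Epor-eGFP- library 0, 2 rose and 2 fell of 5 tested (median 0.17). Where a mean of at least 5 FPKM was required, 2 were tested and both rose. Their sums ran from 263 to 283 FPKM in Epor-eGFP+ libraries and from 62.1 to 106 FPKM in Epor-eGFP- libraries. Most of these sums was Nkg7, which averaged 227 FPKM in Epor-eGFP+ cells and 66.3 FPKM in Epor-eGFP- cells, so they do not describe the markers that fell. The Epor-eGFP+ mean of Cd4 was 36.4 FPKM, or 22.4 without library 2. The part of these cells in the Flt3 values was not tested. Flt3 lies at bases 147330741 to 147400489 of chromosome 5, minus strand.

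**Figure D3:**
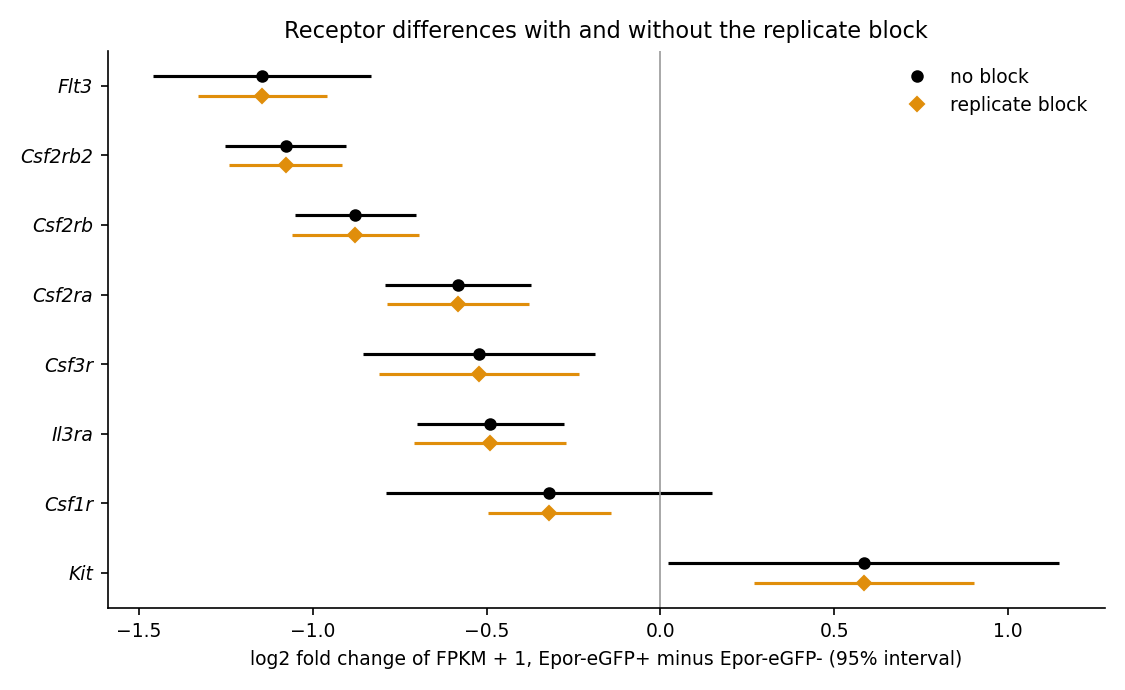
Log2 fold change of FPKM + 1 (Epor-eGFP+ minus Epor-eGFP-) of each receptor gene with its 95% interval, from the fit without a block (black circles) and the fit with a replicate block for the column number (orange diamonds). The intervals of Csf1r narrow with the block from a range that includes 0 to a range below it, and those of Kit stay above 0 in both.

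The order of the levels differed in the middle. In Epor-eGFP+ cells it was Csf1r, Csf2ra, Csf3r, Csf2rb, Kit, Il3ra, Csf2rb2 and Flt3, where the library ranges of Csf3r and Csf2rb overlapped, as did those of Kit and Il3ra. In Epor-eGFP- cells it was Csf1r, Csf2ra, Csf2rb, Csf3r, Il3ra, Csf2rb2, Kit and Flt3, and no neighbouring ranges overlapped. The summed level of the 8 genes was 521.5 ± 40.0 FPKM in Epor-eGFP+ cells and 726 ± 85.5 FPKM in Epor-eGFP- cells (SD, n = 3 each). Csf1r made up 43.9% ± 6.10 of that sum in Epor-eGFP+ cells and 39.4% ± 4.08 in Epor-eGFP- cells. Csf2rb made up 9.72% ± 1.02 of it in Epor-eGFP+ cells and 12.96% ± 0.699 in Epor-eGFP- cells, and Kit 5.86% ± 1.18 in Epor-eGFP+ cells and 2.91% ± 1.19 in Epor-eGFP- cells.

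**Figure D4:**
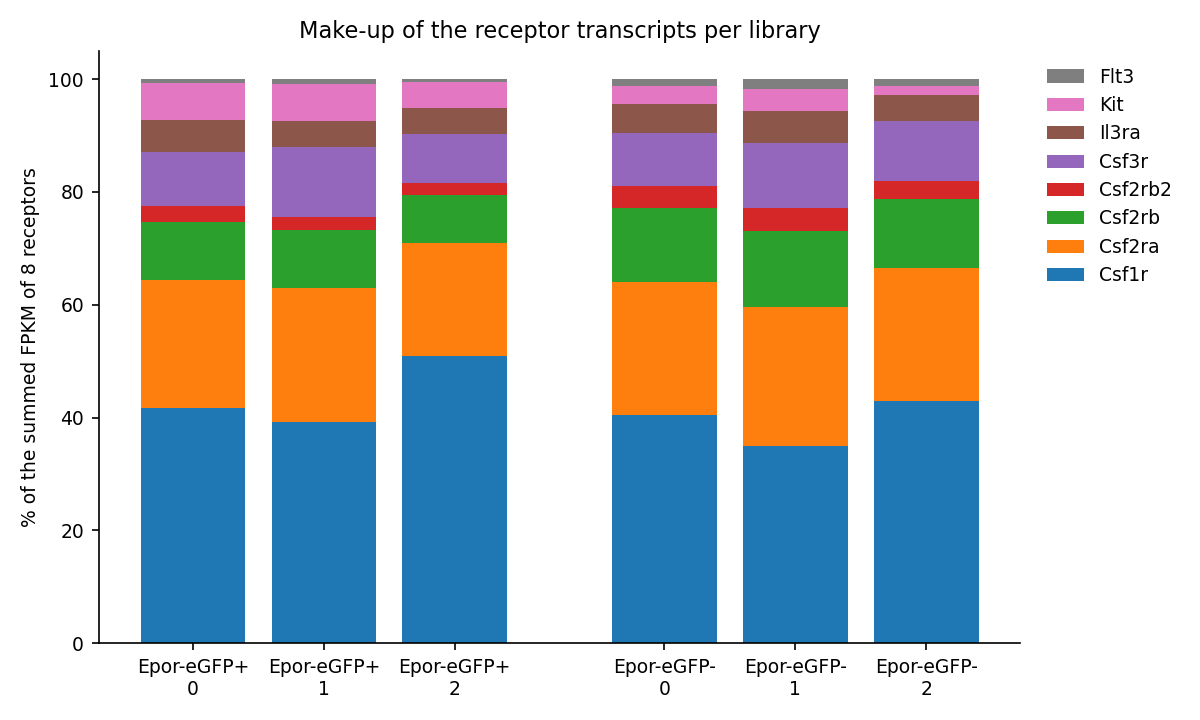
Share of each receptor gene in the summed FPKM of the 8 genes (y axis, %), 1 bar per library, Epor-eGFP+ libraries 0 to 2 on the left and Epor-eGFP- libraries 0 to 2 on the right. Csf1r is the largest share in every library, and the Kit share averages 5.86% in Epor-eGFP+ and 2.91% in Epor-eGFP- libraries.

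The region around the transcription start was taken from RefSeq (GRCm38.p6, 250 bases before to 50 after the start). A window was used for 6 members. Csf1r, the most abundant receptor, and Csf2rb were not searched, so the motif counts do not describe the whole set. Those of Csf2ra, Csf3r and Flt3, which fell, are shown beside that of Kit, the member with the higher mean in Epor-eGFP+ cells. The core GAGGAA of the binding motif of PU.1, a myeloid factor known to act on such promoters, was searched on both strands and is given in capitals. The letters occurred in 28.3% of 32817 promoter windows of the same length. They occurred 2 times in Csf2ra, 2 times in Csf2rb2, and 1 time each in Csf3r and Kit, and not in the windows of Flt3 and Il3ra. The RUNX motif TGTGGT, in 16.8% of all windows, and the GATA motif AGATAA, in 11.2%, were found in none of the 6. The C/EBP motif TTGCNNAA, in 10.8%, was found once, in Il3ra. The windows lie at chr19:61228369-61228668 on the minus strand (Csf2ra), chr4:126024409-126024708 on the plus strand (Csf3r), chr5:75574737-75575036 on the plus strand (Kit) and chr5:147400440-147400739 on the minus strand (Flt3). The PU.1 letters thus stood in the windows of some genes that fell and in that of Kit.
Csf2ra: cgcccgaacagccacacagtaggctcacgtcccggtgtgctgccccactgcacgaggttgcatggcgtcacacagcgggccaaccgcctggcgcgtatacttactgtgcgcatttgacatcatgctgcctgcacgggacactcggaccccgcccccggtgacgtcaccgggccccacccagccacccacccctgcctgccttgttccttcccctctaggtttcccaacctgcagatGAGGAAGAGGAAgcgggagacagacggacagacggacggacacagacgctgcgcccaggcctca
Csf3r: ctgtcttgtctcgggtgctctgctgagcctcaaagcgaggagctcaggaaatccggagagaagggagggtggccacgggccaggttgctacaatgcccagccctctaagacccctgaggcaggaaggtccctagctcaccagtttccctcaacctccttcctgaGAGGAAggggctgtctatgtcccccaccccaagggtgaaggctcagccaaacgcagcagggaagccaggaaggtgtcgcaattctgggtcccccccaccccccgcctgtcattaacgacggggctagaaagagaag
Flt3: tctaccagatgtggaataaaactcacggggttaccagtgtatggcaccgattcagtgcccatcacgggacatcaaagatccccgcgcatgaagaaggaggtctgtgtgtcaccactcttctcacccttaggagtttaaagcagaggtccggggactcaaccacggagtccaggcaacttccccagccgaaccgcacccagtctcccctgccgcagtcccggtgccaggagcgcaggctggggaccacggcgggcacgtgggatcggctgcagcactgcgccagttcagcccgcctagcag
Kit: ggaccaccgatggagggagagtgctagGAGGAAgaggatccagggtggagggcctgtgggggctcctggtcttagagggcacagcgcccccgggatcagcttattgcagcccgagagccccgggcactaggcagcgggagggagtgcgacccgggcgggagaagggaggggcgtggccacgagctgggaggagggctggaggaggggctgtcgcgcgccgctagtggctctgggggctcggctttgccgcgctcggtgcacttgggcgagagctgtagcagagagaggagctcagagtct

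Of the ligands, Csf1, Kitl and Flt3l had rows in the table and all passed the test. Flt3l, the ligand of Flt3, fell with its receptor: it was at 4.53, 4.56 and 5.02 FPKM in Epor-eGFP+ libraries 0 to 2, against 12.1, 9.99 and 11.1 FPKM in Epor-eGFP- libraries 0 to 2 (log2 fold change −1.08, SE 0.09, limma adjusted p = 0.000469). Csf1 was at 6.45, 4.24 and 4.13 FPKM in Epor-eGFP+ libraries against 8.89, 9.17 and 6.74 FPKM in Epor-eGFP- libraries, lower in every Epor-eGFP+ library (−0.65, SE 0.18, limma adjusted p = 0.0212). Its call was lost without Epor-eGFP+ library 1 or 2 or Epor-eGFP- library 0 or 1 (adjusted p 0.0519 to 0.0739). Kitl, which encodes stem cell factor, was at 2.70, 1.19 and 5.33 FPKM in Epor-eGFP+ libraries 0 to 2, against 0.169, 0.0890 and 0.0701 FPKM in Epor-eGFP- libraries (1.74, SE 0.35, limma adjusted p = 0.00689), and its Epor-eGFP+ mean was 1.94 FPKM without library 2 against 3.07 with it. Without that library its mean over all libraries was too low for Kitl to be tested. Its Epor-eGFP- mean was 0.11 FPKM, so Kitl reached the minimum of 1 FPKM only through the Epor-eGFP+ libraries. Stem cell factor is made mainly by stroma and endothelium. Of 6 of their markers tested, 4 rose, none fell and 2 had no call (median 0.91), or 4 higher and 1 lower with the replicate block. Kitl is itself 1 of the 4, so this count includes its own rise. Cxcl12 was at 3.98 ± 1.13 FPKM in Epor-eGFP+ cells against 0.779 ± 0.287 FPKM in Epor-eGFP- cells. Like Kitl, it reached the minimum of 1 FPKM only through the Epor-eGFP+ libraries. The summed FPKM of these markers ran from 45.1 to 49.5 in Epor-eGFP+ libraries and from 34.8 to 43.3 in Epor-eGFP- libraries. Where a mean of at least 5 FPKM was required, 2 of them were tested, 1 rose and none fell (median 0.11). Of these markers 3 of 5 rose and 1 fell without Epor-eGFP+ library 0, 3 of 5 rose without Epor-eGFP+ library 2 (median 0.52), and 3 of 7 rose and 1 fell without Epor-eGFP- library 2. The part of such cells in the Kitl values was not tested. Il34, Csf2, Csf3, Il3 and Il5 had no row in the table, so they could not be analysed here. Every gene in the table reached at least 1.0007 FPKM in some library.

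Genes that carry the receptor signal fell more often than they rose. Of 11 JAK and STAT genes, 7 fell and 4 were not called (median −0.45). Stat5b, a factor that cytokine receptors of this kind activate, fell to 29.5 ± 1.24 FPKM in Epor-eGFP+ cells, against 47.8 ± 2.53 FPKM in Epor-eGFP- cells (log2 fold change −0.68, SE 0.07, limma adjusted p = 0.000788). Stat5a was not called, at 19.2 FPKM in Epor-eGFP+ cells and 20.9 FPKM in Epor-eGFP- cells (−0.12, limma adjusted p = 0.251). Stat6 fell by 0.75, Stat3 by 0.69 and Stat2 by 0.66 on the log2 scale, and Stat2 lost its call without Epor-eGFP+ library 0 (adjusted p = 0.0622). Of 37 adaptors and kinases, 20 fell, 1 rose and 16 had no call (median −0.36). Src, the kinase that rose, was at 5.33 ± 1.59 FPKM in Epor-eGFP+ cells and 0.397 ± 0.111 FPKM in Epor-eGFP- cells (2.15, SE 0.19). It reached the minimum of 1 FPKM only through the Epor-eGFP+ libraries. Its relative Fgr fell by 1.22 and the PI3-kinase subunit Pik3r5 by 0.98. Dok2 fell to 48.8% of its Epor-eGFP- mean. Dok2, an adaptor that dampens signals of tyrosine kinases, was also the gene whose profile lay nearest to that of Flt3.

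Negative regulators and proteases that shed receptors fell more often than they rose as well. Of 30 negative regulators tested, 17 fell, 3 rose and 10 had no call (median −0.28), or 14 and 1 of 29 without Epor-eGFP+ library 2 (median −0.42). Ptprc, the phosphatase CD45 of the leukocyte surface, fell to 108 ± 9.22 FPKM in Epor-eGFP+ cells, against 258 ± 16.4 FPKM in Epor-eGFP- cells (log2 fold change −1.25, SE 0.09), Rasa3 fell by 1.16 and Ptpn1 by 0.96. Socs2, an inhibitor that STAT factors induce, rose to 1.85 ± 0.583 FPKM in Epor-eGFP+ cells, against 0.470 ± 0.207 FPKM in Epor-eGFP- cells (0.95, SE 0.18, limma adjusted p = 0.00578). It reached the minimum of 1 FPKM only through the Epor-eGFP+ libraries, and was too low to be tested without Epor-eGFP+ library 2. In the same list Socs5 rose (log2 fold change 0.61). Socs1, Socs3, Socs4, Socs6 and Cish were called lower (−0.665, −0.663, −0.26, −0.82 and −0.91), and Socs7 had no call. Of 12 shedding proteases and their partners, 5 fell, 1 rose and 6 had no call (median −0.21), or 2 higher and 7 lower with the replicate block. None rose without Epor-eGFP+ library 0, and 2 did without Epor-eGFP+ library 1. Adam8 fell by 2.34 on the log2 scale, Adam15 to 48.7% of its Epor-eGFP- mean, and Rhbdf2, which helps to activate the sheddase of Csf1r, by 0.89. With a common total per library 4 negative regulators were called higher and 12 lower, and 2 shedding proteases higher and 4 lower. Of 28 other cytokine receptors, 14 fell, 4 rose and 10 had no call (median −0.34), or 6 higher and 10 lower with a common total. Epor, counted among the 4, rose most (2.33, SE 0.25), but the cells were sorted on its reporter, so its rise is no separate result. Il17ra fell by 1.78, Il2rb by 1.39 and Il13ra1 by 1.27. The Epor-eGFP- mean of Il2rb was 6.35 FPKM, or 4.10 without library 0.

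Transcription factors known to act on myeloid receptor genes moved in both directions. Of 37 tested, 16 fell, 6 rose and 15 had no call (median −0.33), or 7 higher and 11 lower with a common total. Without Epor-eGFP- library 0, 6 were higher and 8 lower. Maf, a factor of mature macrophages, rose by 2.66 (SE 0.32). Nr4a1, a factor of nonclassical monocytes, fell by 1.71 (SE 0.30). Cebpb fell by 1.39 (SE 0.36, limma adjusted p = 0.0175) and lost its call without Epor-eGFP- library 0 (adjusted p = 0.0518). Across these lists the share of tested genes called lower is to be read beside the 26.3% of all tested genes called lower. The share called higher is to be read beside 22.7%.

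**Figure D5:**
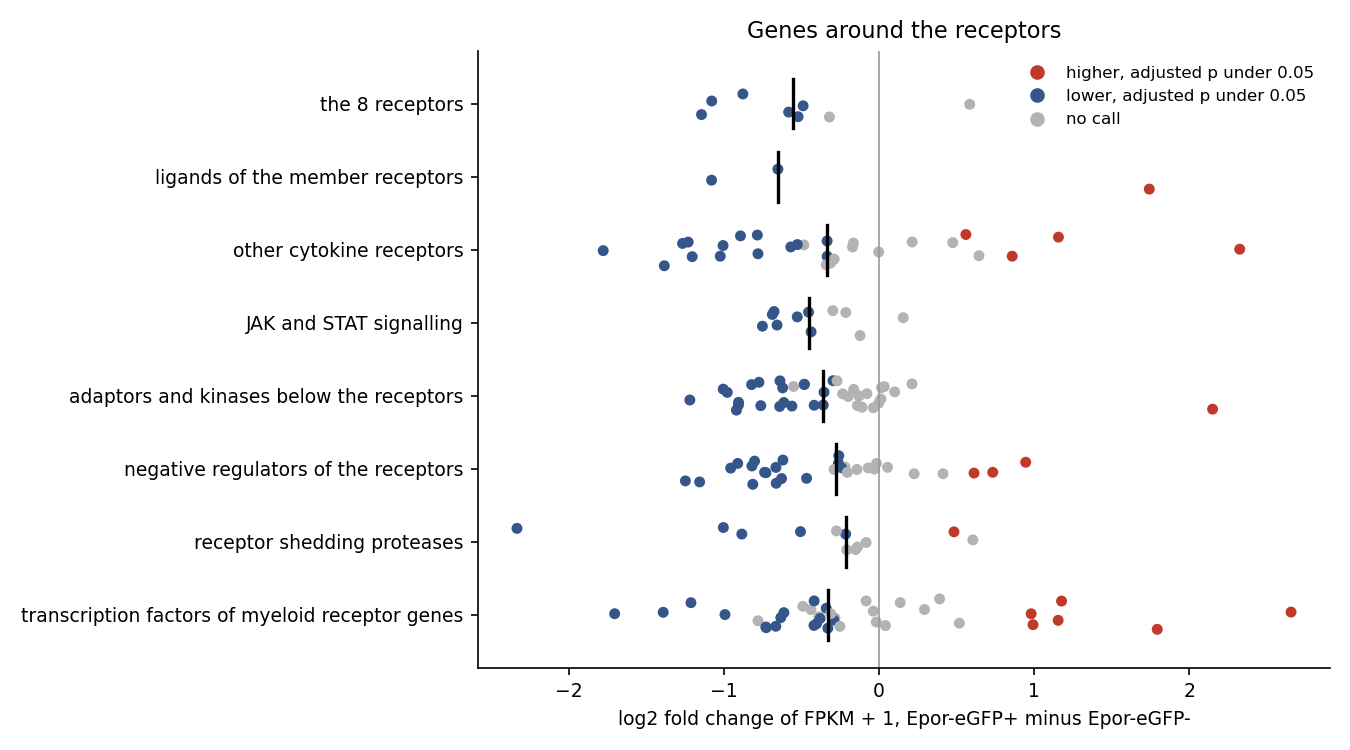
Log2 fold change of FPKM + 1 (x axis, Epor-eGFP+ minus Epor-eGFP-) of each tested gene in the receptor set and in 7 lists of genes around it, 1 point per gene, red where called higher, blue where called lower, grey with no call, and a black bar at the list's median. The medians lie between −0.65 for the ligands and −0.21 for the shedding proteases.

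The genes with the most similar profiles were sought among 10459 tested genes, leaving out predicted genes, by the root mean square distance between log2(FPKM + 1) profiles over the 6 libraries after centring each gene. Csf1r lay nearest to Idh1 (distance 0.0384) and Fam49a (0.0455). Csf2ra lay nearest to Nmi (0.0156) and Pgs1 (0.0272), and Csf2rb to Cdc42ep3 (0.0226) and Cbfa2t3 (0.0344). Csf2rb2 lay nearest to Nfe2 (0.0472) and Esyt1 (0.0529), Csf3r to Chml (0.0529) and Dock10 (0.0625), and Il3ra to Fbxl8 (0.0276) and Ier5l (0.0418). Kit lay nearest to Clstn3 (0.0549) and Prodh (0.0776), and Flt3 to Dok2 (0.0960) and Klf6 (0.101). Among the members themselves Csf2ra and Csf3r were the nearest pair (0.121), followed by Csf2rb and Csf2rb2 (0.124), and Kit lay farthest from Flt3 (0.908). These distances rest on 6 libraries that share the group difference and describe likeness only.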

How the data were processed

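RNA-seq libraries of 6 sorted samples were compared. The deposited values are FPKM in a single table, made by the authors. The submitters' processing notes name TopHat2 2.1.0, Cufflinks 2.2.1, Trimmomatic 0.35, bcl2fastq 2.19.1.403 and, as the build, mm10, without their roles or order. The annotation, filters and any scaling across columns were not given in the sources used here. FPKM holds no read counts, so no counting interval is given, and reads that match several genes may be divided between them. Per the labels' protocols, a TruSeq RNA kit was used.

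Each column is named by its group and numbered 0 to 2, whereas the labels number replicates differently, so a column stands for its group only. Same-numbered libraries shared deviations from the group means (correlations 0.252, 0.377 and 0.348 over tested genes, against −0.387 to 0.065 for different numbers). A fit with the number as a replicate block is therefore printed where it changes a receptor call. For the gene lists it is printed for some only, and it changed counts in others too. With the block, 27 erythroid markers were called higher and 1 lower, and 8 transcription factors higher and 20 lower. No label says what the numbers mark, and this pairing comes from the data alone. The primary fit and the permutation tests are unpaired.

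Values were analysed as log2(FPKM + 1) with limma 3.58.1 (R 4.3.3), eBayes with a mean-variance trend, two-sided, over the 10964 genes whose mean reached 1 FPKM, adjusted by Benjamini-Hochberg. The fit was tested on simulated data. Ratios were tested by exact permutation. Gene coordinates and transcripts are from GENCODE M21 (GRCm38), the same assembly as mm10.

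The named genes are the members, the ligands, up to 4 called genes of each pathway list and up to 2 of each marker list, taken by size of the log2 fold change, and the 2 nearest profiles per member. Some genes that this rule names are not reported here. Member genes were left out of the lists. The members and lists were chosen with earlier results of these data known.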

Additional observations from a re-analysis of the deposited data

How the results depend on the processing

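Csf2rb, Csf2rb2, Il3ra and Flt3 kept their direction and their call in all 19 alternatives (other pseudocounts, filters, scalings, eBayes settings, the replicate block, and libraries left out). With the replicate block Csf1r (log2 fold change −0.32, limma adjusted p = 0.0145) and Kit (0.58, 0.0136) passed, and no other receptor call changed. With a common total per library Csf3r was at −0.42 (adjusted p = 0.0519), and of the called genes 3056 were higher and 2082 lower, so that 59.5% were higher, against 46.3% in the primary fit. With libraries left out, singly or both of a number, Csf2ra ran from −0.65 to −0.49, Csf3r from −0.64 to −0.38 and Kit from 0.31 to 0.78. Csf2ra lost its call only without both libraries numbered 0 (−0.61, adjusted p = 0.0543), which left 2 libraries per group, and Csf3r lost its call in that setting too. Over the same settings the number of genes called higher ran from 482 to 2428 and lower from 915 to 2700, the lowest both without the libraries numbered 0, and without Epor-eGFP+ library 0 alone 1611 were called higher. The log2 ratio of Csf3r over Csf1r was −0.21 and ran from −0.43 to 0.0082, the last without Epor-eGFP+ library 2. Read depth is unknown, so the precision of the low values of Flt3 and Kitl cannot be given.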
